A study of Mus musculus with 4 samples.

Results

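Expression of 8 genes of MHC class II antigen presentation, namely H2-Aa, H2-Ab1, H2-Eb1, H2-DMa, H2-DMb1, Cd74, Ciita and Ctss, was described in mouse sympathetic ganglia from a table of 21937 genes. The 8 were taken by symbol because they had been seen higher in the second value column of that table, so their own ratios are given as a description and were not tested. All 8 had a row in the table.

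MHC class II molecules are surface dimers of an alpha and a beta chain that show peptides from endocytosed proteins to CD4+ T cells. The new dimer travels with the invariant chain, Cd74, which blocks the groove and directs it to endosomes. Proteases such as cathepsin S, encoded by Ctss, cut the invariant chain, and the H2-M dimer, encoded by H2-DMa and H2-DMb1, then removes its last fragment so that a peptide can bind. Transcription of the class II chains, H2-M and the invariant chain depends mainly on the transactivator Ciita. Macrophages, dendritic cells and B cells are the usual carriers of class II, and peripheral ganglia hold resident macrophages among the neurons and their satellite glia.

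RNA was sequenced from mice aged 60 postnatal days, from pools of superior cervical and stellate ganglia, which supply sympathetic fibres to the head, heart and forelimb. The series has 4 samples, 1 pool per genotype. The Hand2 line held a control with the genotype Hand2flox/+ and a mutant with Hand2flox/del, each a pool of 16 ganglia from 4 mice. The Gata3 line held a control with Gata3flox/+, also 16 ganglia from 4 mice, and a mutant with Gata3flox/flox, 32 ganglia from 8 mice. All 4 genotypes carried DbhCreERT2, a recombinase activated by tamoxifen and driven by the dopamine beta-hydroxylase promoter, which is active in noradrenergic cells. The labels give the strains as B6.129/SVJ for the Hand2 line, B6.129/SV129 for the Gata3 control, B6.126/SV129 for the Gata3 mutant and C57BL/6 for the recombinase. Tamoxifen was given for 10 days. The series' design text describes the Gata3 mutant ganglia as rudiments in which Gata3 was not lower.

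The single deposited table compares 2 columns and names neither the line nor the libraries behind them. Values under the control heading form the control side below, and the column headed as a group mean forms the second side. By the table's title the second side should be a mutant, but no genotype was assigned to it. The values are whole numbers without a stated unit, summing to 19343986 on the control side and 19135221 on the second side. The second side is headed as a DESeq group mean and the other side only as control expression. Both were treated as normalised, but whether they are that or raw reads is not known. Their depth is therefore not known either, and no counting error is given. With 1 value per side there is no replicate error, and "higher" and "lower" describe these columns. Ratios are plain ratios of the values, and log2 ratios and counts past 1.5-fold use the value plus 1. Of the targeted genes, Hand2 had 4749 on the control side against 2001 on the second and Gata3 had 1105 against 1050. Sympathetic identity was present on both sides, with Th at 47123 on the control side and 44280 on the second side and Dbh at 102922 and 89194. The sides also differed in sex-linked and muscle transcripts, with Xist at 114 and 1595, Ddx3y at 1206 and a listed 0, and the muscle actin gene Acta1 at 456 and 17. The part of these differences in the class II values was not tested.

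Class II promoters carry a conserved set of elements, of which the X box binds the RFX complex and the Y box binds NF-Y, and on which Ciita assembles. RefSeq promoter windows (build GRCm38.p6, 250 bases before to 50 bases after the transcript start) were found for 5 of the 8 genes. The windows of 3 class II genes and of Ctss are shown because they display the elements through which the group is known to be read. In the class II genes capitals mark a pair, GNAAC, taken as the core of the X box, followed by TGATTGG, taken as the Y box. Matches to the short GNAAC outside this pair are left in lower case. In Ctss capitals mark the repeat of interferon-stimulated elements, GAAA and again GAAA after any 2 bases. The windows lie at chr17:34287774-34288073 on the minus strand for H2-Aa and, on the plus strand, at chr17:34305617-34305916 for H2-Eb1, chr17:34152941-34153240 for H2-DMb1 and chr3:95526536-95526835 for Ctss.
H2-Aa: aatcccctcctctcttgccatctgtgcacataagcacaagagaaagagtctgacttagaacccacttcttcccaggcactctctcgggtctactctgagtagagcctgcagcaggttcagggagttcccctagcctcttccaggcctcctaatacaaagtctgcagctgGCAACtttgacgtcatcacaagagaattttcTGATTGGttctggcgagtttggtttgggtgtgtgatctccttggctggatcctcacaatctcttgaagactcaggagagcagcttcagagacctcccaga
H2-Eb1: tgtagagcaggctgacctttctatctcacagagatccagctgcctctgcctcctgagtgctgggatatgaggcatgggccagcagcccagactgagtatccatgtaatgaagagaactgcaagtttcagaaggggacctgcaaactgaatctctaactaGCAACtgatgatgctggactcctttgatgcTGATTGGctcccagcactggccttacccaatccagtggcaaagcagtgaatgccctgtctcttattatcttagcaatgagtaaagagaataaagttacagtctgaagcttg
H2-DMb1: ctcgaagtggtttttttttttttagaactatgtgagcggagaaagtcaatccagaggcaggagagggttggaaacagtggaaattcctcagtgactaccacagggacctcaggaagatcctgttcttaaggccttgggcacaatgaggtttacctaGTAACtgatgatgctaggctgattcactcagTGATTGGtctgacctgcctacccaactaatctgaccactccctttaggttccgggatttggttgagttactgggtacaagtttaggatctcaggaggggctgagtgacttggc
Ctss: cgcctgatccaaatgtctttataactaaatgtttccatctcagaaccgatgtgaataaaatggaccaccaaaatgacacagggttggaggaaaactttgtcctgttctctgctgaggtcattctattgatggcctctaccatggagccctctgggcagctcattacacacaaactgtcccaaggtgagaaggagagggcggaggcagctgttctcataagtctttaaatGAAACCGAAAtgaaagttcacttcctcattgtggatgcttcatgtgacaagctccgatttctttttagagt

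In H2-Aa, H2-Eb1 and H2-DMb1 the X core was followed by the Y box on the same strand after 26, 25 and 26 bases. The Y box began 50, 61 and 63 bases before the transcript start. Searched on both strands, with a gap of at most 40 bases, this pair of motifs was present in 1.05% of 32851 promoter windows. The Y box alone was present in 7.82% and the short X core alone in 84.8%. The motifs of the pair do not overlap. The pair was also found in the windows of H2-Oa, H2-Ob and H2-Eb2, class II genes with values of at most 15 on either side. The window of H2-DMb2 held the Y box but not the pair. The 2 windows of H2-DMa and the window of Ctss did not hold the pair. The GAAA repeat lay 21 bases before the start of Ctss, and 3.44% of all windows held it. Among the 154 genes outside the members that held the pair and averaged at least 20 over both sides, 3 were at least 1.5-fold higher on the second side (1.95%) and 2 at least 1.5-fold lower, with a median log2 ratio of 0.019. Among all 9349 such genes with a promoter window, 1.29% were at least 1.5-fold higher.

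The chains of the class II dimers were higher on the second side. H2-Aa, the alpha chain of the I-A molecule, stood at 795 on the control side and at 1249 on the second side, a ratio of 1.57 (log2 ratio 0.65). H2-Ab1, the beta chain of I-A, had 607 and 1055, a ratio of 1.74 (log2 ratio 0.80). The partners of this dimer thus had similar ratios. H2-Eb1, the beta chain of the I-E molecule, had 675 and 1097, a ratio of 1.63 (log2 ratio 0.70). Its alpha chain partner H2-Ea, which C57BL/6 mice do not express, was listed at 0 on both sides.

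Cd74 had the highest value of the group, 1962 on the control side against 2966 on the second, a ratio of 1.51 (log2 ratio 0.60). Ctss had 392 and 665, a ratio of 1.70 (log2 ratio 0.76). The subunits of the peptide editor H2-M had lower ratios than the other members. H2-DMa had 211 and 293, a ratio of 1.39 (log2 ratio 0.47), and H2-DMb1 had 44 and 64, a ratio of 1.45 (log2 ratio 0.53). H2-DMb1 has a close copy, H2-DMb2, with values of 14 and 13, and the rule by which reads were shared between them is not known. Ciita, the transactivator of the class II chains, H2-M and the invariant chain, had the highest ratio of the 8 at the lowest level. It had 27 against 52, a ratio of 1.93 (log2 ratio 0.92).

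**Figure D1:**
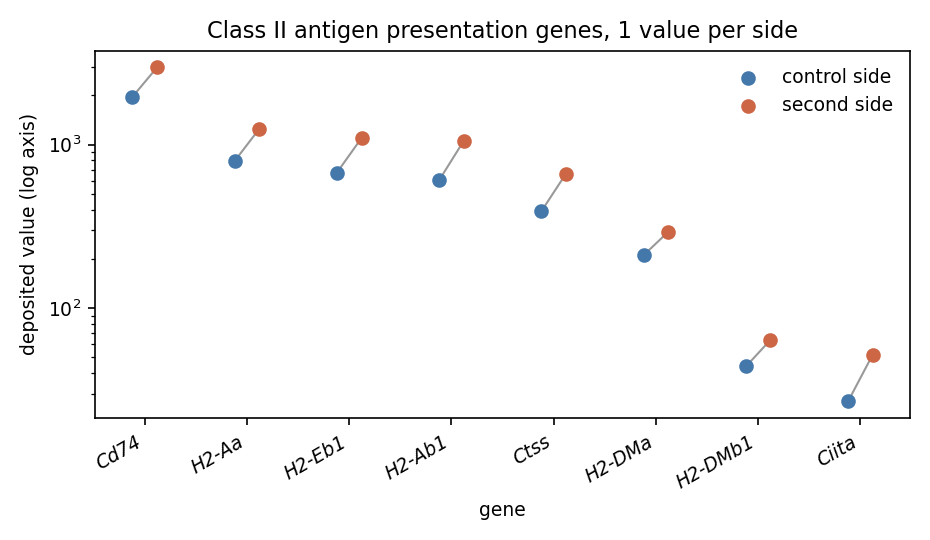
Deposited value (log axis) of each of the 8 genes on the control side and the second side, with 1 point per side and no error. Every gene lies higher on the second side, from a ratio of 1.39 in H2-DMa to 1.93 in Ciita.

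All 8 genes were higher on the second side, where 50% of the 13171 genes averaging at least 20 over both sides were. At least 1.5-fold higher were 6 of the 8, all but H2-DMa and H2-DMb1, against 1.41% of those genes. Because the genes had been chosen from this same comparison, nothing is read from these shares. The median log2 ratio of the 8 was 0.68, and that of all genes averaging at least 20 was 0.00047. A log2 ratio at or above 0.68 was found in 112 of these genes, 0.850% of them.

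The scatter of ratios widens at low values, so each gene was also placed among the 500 genes nearest to it in mean value. No such gene had a ratio as high as that of H2-Aa or Ctss, 1 had one as high as H2-Ab1, 1 as high as Cd74 and 3 as high as H2-Eb1. At the levels of these genes the upper end of the central 95% of ratios lay between 1.17-fold and 1.27-fold. H2-DMa and Ciita were each matched by 5 such genes. H2-DMb1 was matched by 44, and its ratio of 1.45 lay inside the central 95%, which reached 1.67-fold at that level. For Ciita the central 95% reached 1.73-fold. The class II genes had been chosen as higher from these same values, so a high place was favoured in advance. These places are a description, and nothing is read from them.

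In the authors' deposited table H2-Ab1 and Cd74 have an adjusted p of 0.0166 and 0.0169, and these 2 of the 8 lie under 0.05, where 0.0471% of all genes with an adjusted p do so and are higher on the second side. The authors' deposited table gives H2-Eb1 0.0669, H2-Aa 0.0879 and Ctss 0.182, and H2-DMa, H2-DMb1 and Ciita 1. Before adjustment 5 of the 8 lie under 0.05 in the authors' deposited table, where 0.471% of all genes do so and are higher on the second side. The number of libraries behind these p-values is not known. The series has 1 pool per genotype, so they cannot rest on replicate pools of the same genotype. The class II genes had been chosen as higher in this same comparison, so nothing is read from their shares under 0.05.

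**Figure D2:**
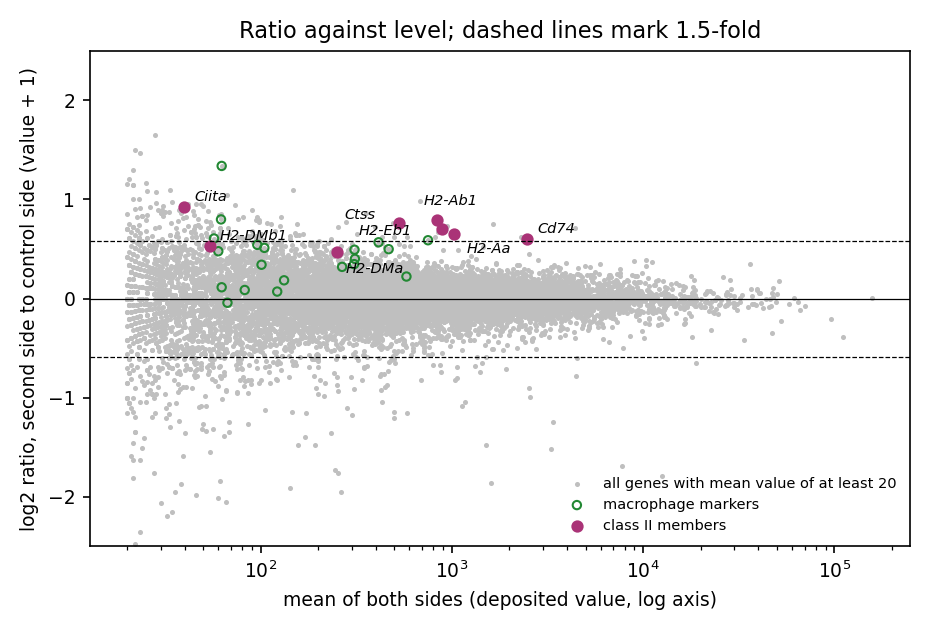
Log2 ratio of the second side to the control side against the mean of both sides (log axis) for all genes averaging at least 20 in grey, macrophage markers as open circles and the 8 class II genes as filled, named points; dashed lines mark 1.5-fold. The 8 genes were chosen as higher on the second side, so their place is a description. H2-Aa, H2-Ab1, H2-Eb1, Cd74 and Ctss lie above most grey points at their level, with at most 3 of the 500 nearest genes as high. H2-DMb1 lies among the grey points. Beyond the axis range of 2.5, 5 genes above and 25 genes below are not drawn.

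The proportions within the group changed little. The 8 values summed to 4713 on the control side against 7441 on the second, a ratio of 1.58. Cd74 made up 41.6% of the sum on the control side and 39.9% on the second side, and the 3 chain genes H2-Aa, H2-Ab1 and H2-Eb1 made up 16.9%, 12.9% and 14.3% on the control side and 16.8%, 14.2% and 14.7% on the second side. Divided by transcript length, the order of the levels was the same on both sides. Cd74 led with a value per kilobase of 1391 on the control side and 2104 on the second side, followed by H2-Aa with 705 and 1107, H2-Ab1 with 501 and 870, H2-Eb1 with 404 and 657 and Ctss with 289 and 491. H2-DMa had 127 and 177 per kilobase, H2-DMb1 31.3 and 45.6, and Ciita 4.49 and 8.66. Per kilobase, Cd74 stood at 1.97 times H2-Aa on the control side and 1.90 times on the second side, and H2-Aa stood at 1.41 and 1.27 times H2-Ab1.

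The class II genes of chromosome 17 are interleaved with genes of the class I pathway, which load peptides from the cytosol. In the RefSeq order from H2-Oa to H2-Ea the table held 15 genes, of which 5 are members and 5 others averaged at least 20. None of these 5 neighbours was 1.5-fold higher or lower, and their median log2 ratio was -0.0010. Tap1 and Tap2, the peptide transporter of class I, lie between H2-DMb1 and H2-Ab1 and had 734 and 723 and 934 and 893. The immunoproteasome subunit genes Psmb8 and Psmb9, beside them, had 840 and 903 and 199 and 255. The chromatin reader gene Brd2, next to H2-DMa, had 4166 and 4163. The other 5 class II genes of the region were too low to compare, with H2-Oa at 4 and 8, H2-Ob at 15 and 13, H2-DMb2 at 14 and 13, H2-Eb2 at a listed 0 and 2, and H2-Ea listed at 0 on both sides.

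**Figure D3:**
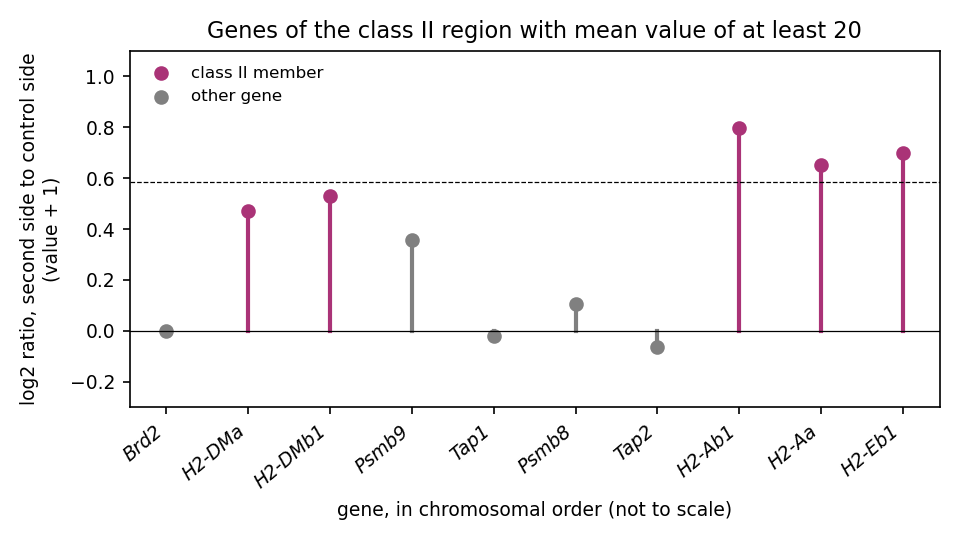
Log2 ratio of the second side to the control side for the 10 genes of the class II region averaging at least 20, in chromosomal order and not to scale, with 1 value per gene; the dashed line marks 1.5-fold. The 5 class II genes stand at 0.47 to 0.80, and the genes between and beside them at -0.065 to 0.36.

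The factors that carry Ciita to class II promoters showed little difference. Of 7 genes of the RFX complex, NF-Y and Creb1, 5 were higher and 2 lower, none by 1.5-fold, with a median log2 ratio of 0.11. Rfxank, an RFX subunit gene, had 169 and 182, and Nfyb, an NF-Y subunit gene, had 432 and 510. Interferon gamma, the main inducer of Ciita outside professional antigen-presenting cells, was listed at 0 on both sides. Among the 10 genes of its pathway and of the factors that act on Ciita that averaged at least 20, 7 were higher and 3 lower, again none by 1.5-fold. Jak1, a kinase that relays the interferon signal, had 4048 and 3816. Irf8 and Spi1, factors of myeloid cells, had 82 and 104 and 32 and 43.

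Genes that interferon gamma is known to induce were mixed. Of the 10 that averaged at least 20, 7 were higher and 3 lower, with a median log2 ratio of 0.079. Of these 10, the T cell attractant Cxcl9 was the one past 1.5-fold, with 6 on the control side and 48 on the second side, and its adjusted p in the authors' deposited table is 0.572. The guanylate-binding protein genes Gbp2 and Gbp6 went in opposite directions, with 671 and 835 and 933 and 762. Genes induced by type I interferon had lower values on the second side in 11 of 12, and 7 of these were at least 1.5-fold lower, against 2.41% of all genes averaging at least 20. Rsad2 had 593 and 324. In the authors' deposited table none of the 12 has an adjusted p under 0.05. The class II genes and the type I interferon genes differed in opposite directions between the same sides. The class II genes had been chosen as higher, so nothing is read from this contrast.

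Genes of the MHC class I pathway lay closer to equal values. Of 16 genes of the class I pathway 9 were higher and 7 lower, with a median log2 ratio of 0.047. B2m, the light chain of class I, had 10234 and 10856, and H2-T23, a nonclassical heavy chain gene, had 1086 and 1181. Nlrc5, the transactivator of class I and a relative of Ciita, was the one gene of the list past 1.5-fold and was lower on the second side. It had 442 and 276, a ratio of 0.624, and its adjusted p in the authors' deposited table is 1. The transactivators of the 2 classes had ratios on opposite sides of 1, at low values in the case of Ciita. Ciita had been chosen as higher, so nothing is read from this contrast.

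Other endosomal proteins that prepare antigen had smaller ratios than Ctss. Of 10 genes 7 were higher and 3 lower, none by 1.5-fold, with a median log2 ratio of 0.096. Ctsb and Ctsd, the most abundant cathepsin genes of the list, had 24247 and 28161 and 22531 and 21857. Ctsl, which cuts the invariant chain in thymic epithelium, had 5534 and 6134. Ctsc, a cathepsin that activates granule proteases, had 350 and 462, a ratio of 1.32. Cst3, a secreted inhibitor of cathepsins including cathepsin S, had 8928 and 11671, a ratio of 1.31, and its adjusted p in the authors' deposited table is 0.288. All 10 of these genes lay within 1.5-fold, and Ctss, which had been chosen as higher, did not.

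Invariant chain at the cell surface is also a receptor for the cytokine Mif, which signals with Cd44 and chemokine receptors. Of 5 genes of this group 3 were higher and 2 lower, none by 1.5-fold. Mif had 957 and 1012, Cd44 had 808 and 953, and Cxcr4 had 3018 and 3766, a ratio of 1.25. The lower ones were the chemokine receptor gene Cxcr2, with 48 and 32 (log2 ratio -0.57), and Ddt, a relative of Mif, with 541 and 534. Costimulatory genes were low. Cd86 had 24 and 28 and Cd40 had 19 and 28, and Icosl, a ligand of activated T cells, had 96 and 136. Cd274, which encodes the inhibitory ligand PD-L1, had 362 and 333. Of the 4 costimulatory genes averaging at least 20, 3 were higher, none by 1.5-fold. The median log2 ratio was 0.36, and it was 0.23 with each column divided by its sum, 0.19 over genes averaging at least 50 and 0.21 with no minimum.

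Macrophage markers were also higher on the second side. Of 20 markers 19 were higher, against 50% of all genes averaging at least 20, and 4 were at least 1.5-fold higher, against 1.41%. The 1 lower marker was Itgam, with 68 and 66. The median log2 ratio of the 20 markers was 0.44. Their values summed to 3765 on the control side against 5062 on the second, a ratio of 1.34, and none was at 0 on either side. The lysozyme gene Lyz2 had 599 and 901, Fcgr1, an Fc receptor gene, had 45 and 79, and Csf1r, the receptor for the main macrophage growth factor, had 534 and 623, a ratio of 1.17. The highest ratio belonged to Ly86, which encodes a partner of a Toll-like protein, with 35 and 90, a ratio of 2.57, above all 8 class II genes. Before adjustment 4 of the 20 markers, all higher on the second side, have a p under 0.05 in the authors' deposited table. Among all genes 0.471% do so and are higher on the second side. After adjustment none of the 20 markers lies under 0.05. The median macrophage marker had a ratio of 1.36, below that of each of the 8 class II genes, which had been chosen as higher. Of the 20 markers 10 had a ratio at or above that of H2-DMa, the lowest of the 8. The class II sum stood at 1.25 times the macrophage sum on the control side and 1.47 times on the second side. The part of macrophage content in the class II values was not tested, and in these pools more cells and more RNA per cell cannot be told apart.

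Markers of other immune cells were scarce or had members in either direction. No B cell marker or T and NK cell marker reached a mean value of 20. The B cell markers summed to 19 and 31 and Pax5 was listed at 0 on both sides, and the T and NK cell markers summed to 38 and 48. Of 6 dendritic cell markers averaging at least 20, 3 were higher and 3 lower. The growth factor receptor gene Flt3 had 64 and 60, Zbtb46 had 175 and 215, and Itgax had 22 and 33. The dendritic cell list summed to 2410 and 2355, most of it Fscn1, which other cells also express, with 2042 and 1927. The median log2 ratio was 0.019 in 9 satellite glia markers, -0.0060 in 6 myelin markers and 0.086 in 9 endothelial markers, and no gene of these 3 lists was 1.5-fold higher.

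**Figure D4:**
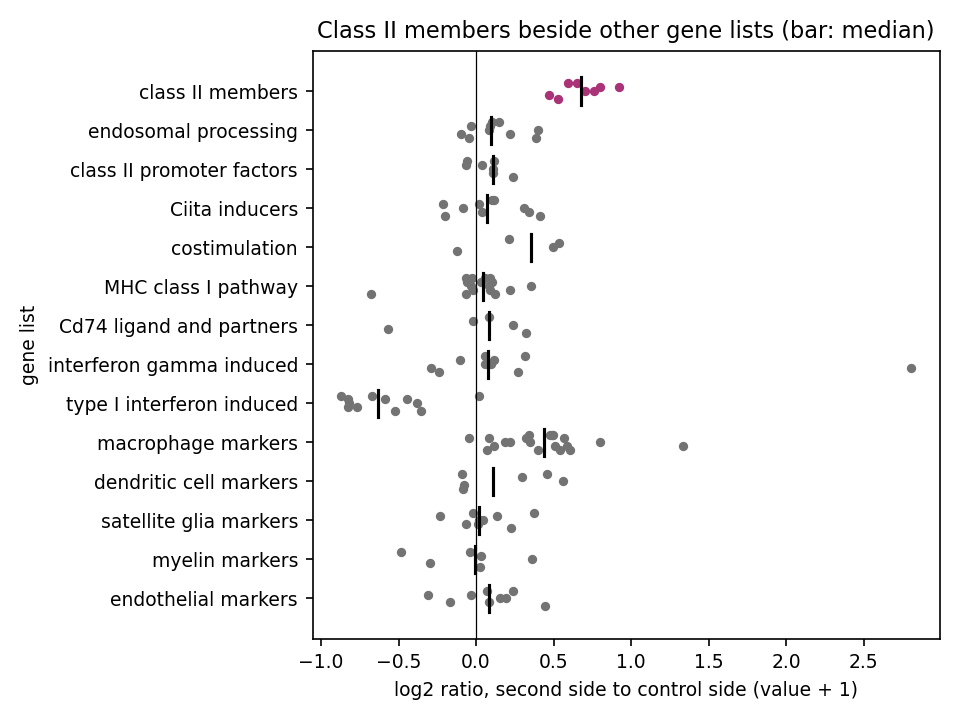
Log2 ratio of the second side to the control side for each gene averaging at least 20, by list, with 1 point per gene and a bar at the median of the list. The class II genes have a median of 0.68, the macrophage markers 0.44 and the MHC class I pathway 0.047, and the type I interferon genes lie on the lower side at -0.63.

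Among the 5 genes nearest to the class II median of 0.68 in log2 ratio, taken from those averaging at least 50, were Lair1 with 69 and 111, Frem1 with 43 and 69, Ffar3 with 654 and 1041 and 2900041M22Rik with 40 and 64. Their log2 ratios lay between 0.66 and 0.68. Likeness here rests on a single ratio per gene.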

How the data were processed

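Per the submitters' processing notes, the tools were DESeq, HTSeq 0.5.4p1, SAMtools 0.1.19 and TopHat2 2.0.8, and the build was mm9. Their roles, the annotation and the strand setting are not stated, so overlapping genes and close copies such as H2-DMb1 and H2-DMb2 are uncertain. Per the file headers, the deposited value columns are DESeq group means, treated as a normalised score. In all 21937 rows the mutant heading stands over the mean of the other 2 value columns, so it was left out. The authors' fold change is a ratio of the 2 sides and was recomputed from them. P-values, raw and adjusted, are the authors' own.

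The members and gene lists were chosen with earlier results of these data known. Of 186 list entries 182 matched a row, 5 of them through a synonym. All 8 members were named, and in each list up to 4 genes with the largest log2 ratio in either direction and the 2 most abundant, at a mean value of at least 20. Neighbours in the class II region, and Th and Gata3, were named for their place or role, with their values known. Ddt and Itgam were named as lower genes of their lists. Counts used 1.5-fold on log2(value + 1). Transcript lengths came from GENCODE vM21 (principal isoform). Promoters and gene order came from RefSeq, GRCm38.p6, used for sequence and order only. Calculations used Python 3.11.15, numpy 2.4.6 and pandas 2.3.3 and were tested on simulated data. No test was run, because each side holds 1 value. Some genes that the naming rule takes are not reported here.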

Additional observations from a re-analysis of the deposited data

How the results depend on the processing

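All 8 class II genes remained higher on the second side, 6 of them by at least 1.5-fold, with a pseudocount of 0.5 or 5 and with each column divided by its sum. With each column scaled by its sum, where a pseudocount of 1 weighs more, the log2 ratio of H2-DMb1 was 0.41 and that of Ciita 0.63. Of 118 alternative values 103 moved by less than 0.1 (log2), or, for a count, by less than 1.5 times. The number of genes at least 1.5-fold higher was 82 at a mean value of at least 50, 1244 with no filter and 77 with that scaling, and 22 were at least 2-fold higher. The number lower was 177, 1713 and 176 under the same settings, and 110 at 2-fold. The median log2 ratio of costimulatory genes was 0.23 with that scaling, 0.19 at a mean value of at least 50 and 0.21 with no filter. That of dendritic cell markers was -0.084 at a mean value of at least 50, where 3 genes were left, and 0.30 with no filter. No paired analysis was possible because each side holds 1 value and the samples share no replicates.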
